A study of Mus musculus with 10 samples.

Results

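Imprinted genes, which are transcribed mainly or only from the copy inherited from 1 parent, were followed in the lenses of mouse embryos that lacked or kept Dicer in the lens. The set comprised 36 genes named by symbol, and 29 of them had a probe set annotated to that gene alone, among 19938 genes tested. The other 7 are accounted for as follows: Gnas, Snrpn, Ube3a and Mirg had only probe sets that also name other genes, and H19, Kcnq1ot1 and Zrsr1 had no probe set under their own symbol. Each measured gene had a single probe set of its own, and values are log2 signals, so a difference of 1 is a 2-fold change.

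Embryos called DicerCN had 2 loxP-flanked Dicer alleles and 1 copy of Le-Cre (Le-Cre+/-; Dicer loxP/loxP). Le-Cre places Cre under the Pax6 P0 promoter, which is active in surface ectoderm and so in the epithelium of lens and cornea. Control embryos carried the same flanked alleles without Cre (Le-Cre-/-; Dicer loxP/loxP), although their titles call them wt, so the presence of Cre and the loss of Dicer cannot be told apart. All were taken at E13.5, and the lens pair of 1 embryo gave 1 array, with 5 arrays in each group. Dicer, a ribonuclease, releases mature microRNAs from their hairpin precursors. The Dicer1 probe set itself did not part the groups (0.13 higher in DicerCN lenses, SE 0.08, limma adjusted p = 0.472), and since it can lie outside the deleted exons, it does not check the labels.

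Imprinted genes lie in clusters, each governed by a stretch of DNA that is methylated on only 1 parental copy. Many clusters hold a noncoding RNA and protein-coding genes of opposite parental expression, and many of the proteins act on growth of the embryo and placenta. The Dlk1-Dio3 cluster also holds one of the densest groups of microRNA genes in the mammalian genome, all on the maternally expressed strand. The arrays do not tell the parental copies apart, so the parental origin given for each gene is background and was not measured.

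Of the 29 measured imprinted genes, Nnat rose and Peg3, Zim1, Meg3 and Rian fell in DicerCN lenses. These were 5 of 29, beside 6.54% of all 19938 genes, and 1 higher and 4 lower, beside 2.56% and 3.97% of all genes (limma, Benjamini-Hochberg adjusted p under 0.05). All DicerCN arrays lay above all control arrays in Nnat, and below them in Peg3, Zim1, Meg3, Rian, Mest and Copg2, that is in 7 of 29 genes. Groups that did not overlap were found in 7.38% of all genes, with DicerCN above in 2.96% and below in 4.42%. An unadjusted limma p under 0.05 was found in 9 of the 29, and in 3704 of all 19938 genes. The median change over the 29 genes was −0.08, against −0.0010 over all genes, and the median size of a change was 0.21 against 0.10. The imprinted genes also varied more within groups. Their median SD was 0.207 against 0.134 over all genes in control lenses, and 0.247 against 0.165 in DicerCN lenses. The part of this spread in the larger size of change was not tested. In bulk lenses, fewer cells of a type and less RNA per cell cannot be told apart.

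**Figure D1:**
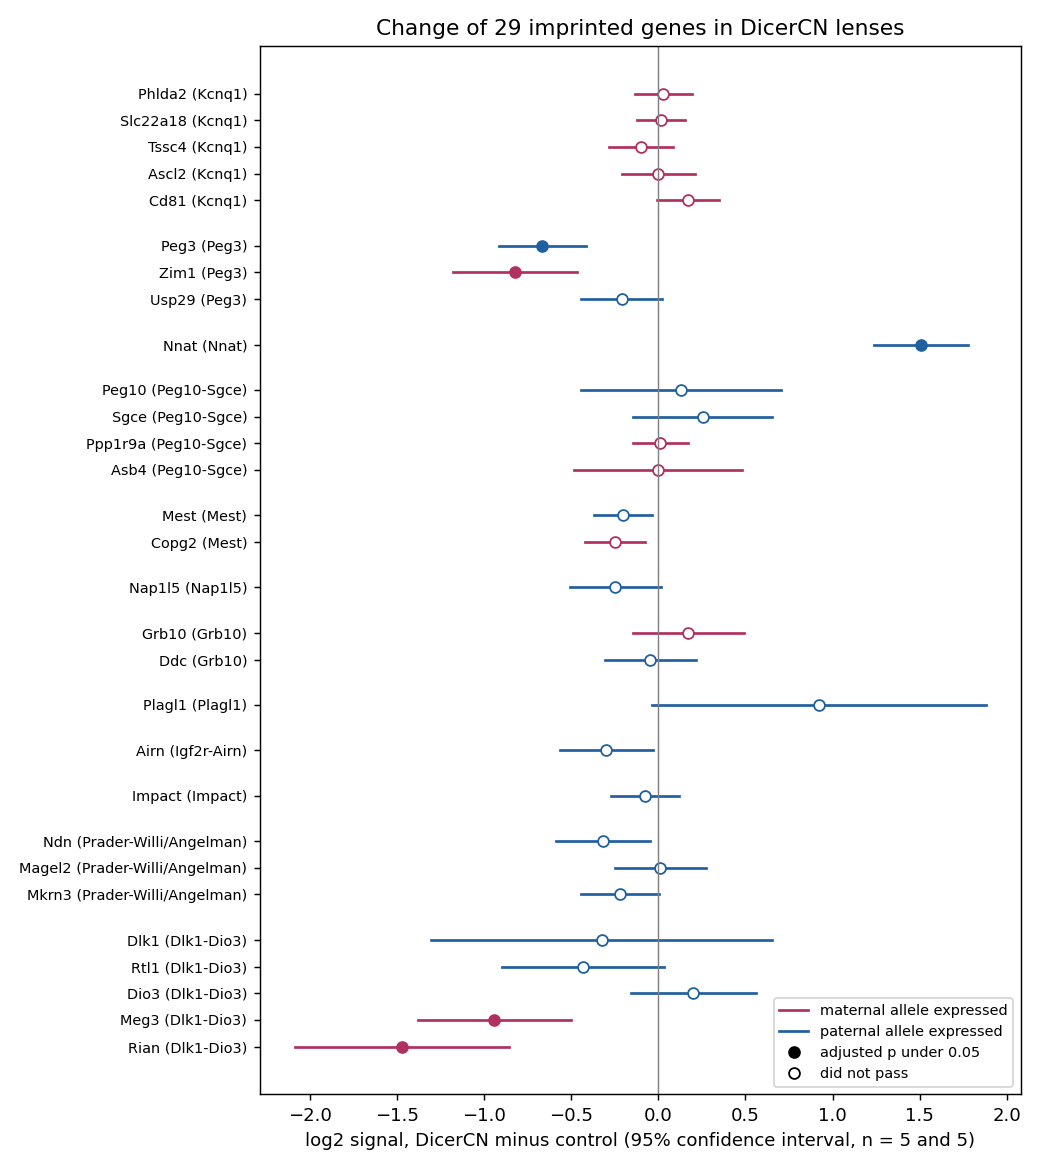
Change of each of the 29 measured imprinted genes, as log2 signal in DicerCN minus control lenses with its 95% confidence interval, grouped by cluster and coloured by the parental copy usually expressed. Filled points passed the test: Nnat stands alone on the right at 1.51, and Peg3, Zim1, Meg3 and Rian on the left between −0.67 and −1.47.

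The arrays were not equal in tissue. Lens markers were high on every array (12 of 12 measured, mean log2 signal 12.26 to 12.46 in control and 11.93 to 12.53 in DicerCN lenses). The mean of 12 skeletal muscle markers was 9.46 on control replicate 4 and lay between 5.87 and 6.23 on the other control arrays and between 5.98 and 6.15 on the DicerCN arrays. On that array the mean of 9 periocular mesenchyme markers was 8.42, against 7.14 to 7.47 on the other controls and 7.29 to 8.52 in DicerCN lenses. Of these 9 markers, 1 passed the test as lower in DicerCN lenses (−0.58), while the other 8 had higher means without passing. Macrophage markers (11 measured) averaged 6.38 to 7.16 in control and 6.91 to 7.61 in DicerCN lenses, and 2 of them, Csf1r and Cx3cr1, passed the test as higher. Pigment epithelium markers (7 measured) averaged 5.51 to 5.88 in control lenses, and 6.69, 7.29 and 6.82 on DicerCN replicates 1, 4 and 5 against 5.69 and 5.90 on replicates 2 and 3. Neural retina markers (7 measured) reached 8.62 and 9.11 on DicerCN replicates 4 and 5 and lay between 7.43 and 7.95 elsewhere. Neuron markers (8 measured) reached 8.07 on DicerCN replicate 5, with the other arrays between 5.60 and 6.66. Markers of vascular endothelium (8 measured, 8.16 to 8.73 and 8.03 to 9.25), erythroid cells (6 measured, 8.25 to 9.29 and 8.92 to 9.46) and surface ectoderm (6 measured, 6.02 to 6.25 in both groups) overlapped between control and DicerCN lenses. Fits without an array, or with a marker score as a covariate, are given below for the genes that passed and for the larger moves among the others. The macrophage and pigment epithelium scores themselves were higher on average in DicerCN lenses (exact permutation p = 0.0397 and 0.0317). These were the smallest p values of the lists scored and were not adjusted for the number of lists. A call lost with either score therefore does not tell that score from the group.

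Nnat encodes neuronatin, a small membrane protein of the endoplasmic reticulum that is abundant in developing brain and in endocrine cells, and is expressed from the paternal copy. Its log2 signals were 10.01, 10.05, 10.11, 10.20 and 10.57 in control replicates 1 to 5 and 12.03, 11.60, 11.73, 11.47 and 11.64 in DicerCN replicates 1 to 5. The lowest DicerCN array stood clear of the highest control array, and the spread within each group was small beside the gap. Nnat was 2.84-fold higher (difference 1.51, SE 0.13, limma adjusted p = 7.4e-05, exact permutation p = 0.00794, the smallest that 252 splits of the arrays allow). It passed the test under each of 24 other settings, which left out arrays, changed the normalization or added a marker score, with differences between 1.42 and 1.63. Not every setting is a separate check. Averaging probe sets cannot change a gene with 1 probe set, and the muscle score nearly repeats leaving out control replicate 4. On DicerCN replicates 1 to 5 the neuron score was 5.60, 6.66, 5.83, 6.12 and 8.07. The macrophage score on the same arrays was 7.61, 6.96, 7.60, 7.46 and 6.91. The part of other cell types in the Nnat difference was not tested beyond the fits with marker scores, none of which held the neuron score.

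In the Peg3 cluster 2 of the 3 measured genes fell, beside 3.97% of all genes. The 3 share a cluster, so the count is not of independent genes. Peg3, a zinc finger transcription factor expressed from the paternal copy, had log2 signals of 11.14, 10.98, 11.22, 11.10 and 11.08 in control and 10.34, 10.67, 10.67, 10.04 and 10.47 in DicerCN lenses. Control values were close together and every DicerCN array was below them, with replicate 4 the lowest. Peg3 fell by 0.67 (SE 0.12, limma adjusted p = 0.0045, exact permutation p = 0.00794). Zim1, a neighbouring zinc finger gene expressed from the maternal copy, had 8.63, 8.32, 8.18, 8.86 and 8.20 in control and 8.06, 7.78, 7.39, 7.27 and 7.57 in DicerCN lenses. Here the gap was narrow, from 8.06 to 8.18, and DicerCN replicates 3 and 4 were the lowest. Zim1 fell by 0.82 (SE 0.17, limma adjusted p = 0.0104, exact permutation p = 0.00794). Usp29, a ubiquitin protease gene that starts head to head with Peg3, stood at −0.21 (SE 0.11, limma adjusted p = 0.330), with control arrays at 5.48 to 5.57 and DicerCN arrays at 4.89 to 5.53.

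The calls of Peg3 and Zim1 held without control replicate 4, at −0.67 and −0.72. With the macrophage score in the fit neither passed (−0.59 and −0.95, limma adjusted p = 0.115 and 0.0786). Their SEs were 0.165 and 0.235 in that fit, against 0.115 and 0.165 without a score. With the pigment epithelium score, Peg3 moved to −0.40 (adjusted p = 0.0866) and Zim1 to −0.79 (adjusted p = 0.101). Leaving out DicerCN replicates 4 and 5 together ended the call of Zim1 (−0.69, adjusted p = 0.0640) and not that of Peg3.

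**Figure D2:**
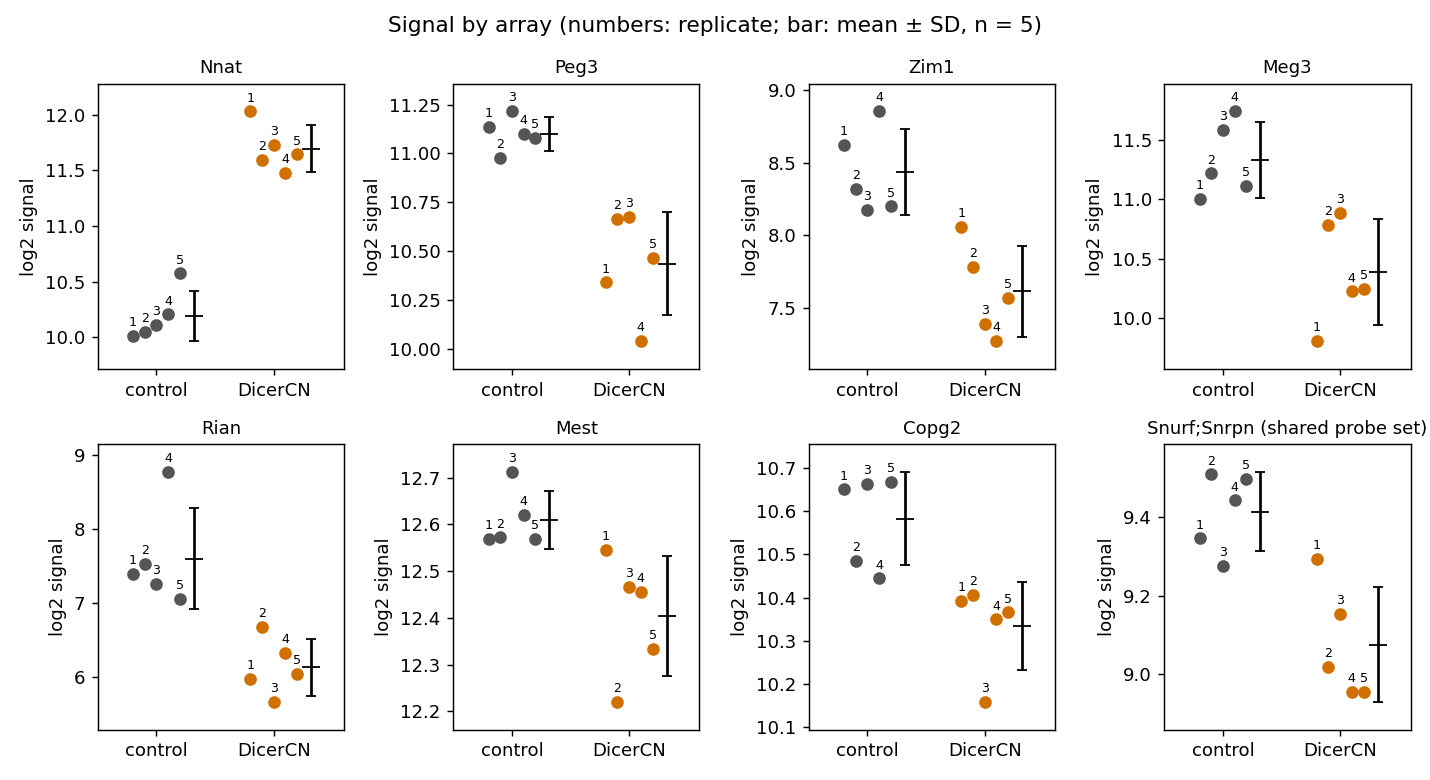
Log2 signal on each array for the 7 imprinted genes whose groups did not overlap and for the probe set shared by Snurf and Snrpn. Numbers give the replicate and bars the mean ± SD of 5 arrays. DicerCN points lie above control points in Nnat only, and control replicate 4 stands apart at 8.77 in Rian.

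The Dlk1-Dio3 cluster expresses Dlk1, Rtl1 and Dio3 from the paternal copy and the noncoding RNAs Meg3, Rian and Mirg from the maternal copy. Both measured noncoding RNAs fell, beside 3.97% of all genes, and 0 of the 3 protein-coding genes passed the test. At an unadjusted p under 0.05, beside 3704 of all 19938 genes, 0 of those 3 passed. Meg3, a nuclear noncoding RNA, had log2 signals of 11.01, 11.22, 11.58, 11.74 and 11.11 in control and 9.81, 10.78, 10.89, 10.23 and 10.25 in DicerCN lenses. The groups were parted by a narrow gap, from 10.89 to 11.01, and DicerCN replicates 1, 4 and 5 were the lowest, the arrays on which pigment epithelium markers were highest. Meg3 fell by 0.94 (SE 0.20, limma adjusted p = 0.0155, exact permutation p = 0.00794) and by 0.84 without control replicate 4 (adjusted p = 0.0303).

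Rian, which carries C/D box small nucleolar RNAs and microRNAs in its introns, had log2 signals of 7.39, 7.53, 7.25, 8.77 and 7.06 in control and 5.96, 6.67, 5.65, 6.32 and 6.03 in DicerCN lenses. Control replicate 4 was far above the rest, and the other 4 controls were still above all DicerCN arrays. Rian was 2.78-fold lower (difference −1.47, SE 0.28, limma adjusted p = 0.00861, exact permutation p = 0.00794). Without control replicate 4 the fall was smaller and more even, 1.18 (SE 0.18, adjusted p = 0.00241).

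Neither noncoding RNA passed with the macrophage score in the fit (Meg3 −1.08, limma adjusted p = 0.102, and Rian −1.75, adjusted p = 0.0567). Their SEs were then 0.29 and 0.397, against 0.203 and 0.284 without a score. With the pigment epithelium score, Meg3 moved to −0.57 (adjusted p = 0.248) and Rian stood at −1.52 (adjusted p = 0.0693). The call of Meg3 also ended without control replicate 4 and DicerCN replicate 5 together (−0.81, adjusted p = 0.0548) and without DicerCN replicates 4 and 5 (−0.84, adjusted p = 0.0909).

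Probe sets that name a second transcript beside Rian or Mirg were also lower without passing. The one shared by Rian and the small nucleolar RNA AF357355 stood at −1.04 (SE 0.36, limma adjusted p = 0.123), and −0.72 (adjusted p = 0.173) without control replicate 4. The one shared by Mirg and the microRNA gene Mir410 stood at −0.87 (SE 0.30, adjusted p = 0.122), and −0.57 (adjusted p = 0.137) without that array. Of 3 small nucleolar RNA genes of the interval with a probe set of their own, 1 fell, beside 3.97% of all genes. That was DQ267102, which fell by 1.11 (limma adjusted p = 0.00431), and by 0.90 without control replicate 4 (adjusted p = 0.000532). DQ267101 stood at −0.96 (adjusted p = 0.0574), and at −0.65 (adjusted p = 0.0193) without that array. AF357341 stood at −0.36 (adjusted p = 0.127), and at −0.31 (adjusted p = 0.222).

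Among the protein-coding genes, Dlk1, a transmembrane protein with EGF repeats, had 7.85, 7.93, 7.90, 10.58 and 7.87 in control and 7.81, 8.02, 8.70, 8.16 and 7.81 in DicerCN lenses. The single value on control replicate 4 set the sign of its difference: −0.33 (SE 0.45, limma adjusted p = 0.785) with that array and 0.21 (SE 0.16, adjusted p = 0.545) without it. With all arrays and the macrophage score in the fit, Dlk1 stood at −1.31 (SE 0.52, adjusted p = 0.270). Rtl1, a gene derived from a retrotransposon and needed in the placenta, had 6.80, 6.53, 6.55, 7.81 and 6.88 in control and 6.13 to 6.81 in DicerCN lenses. It stood at −0.43 (SE 0.21, adjusted p = 0.314), and at −0.21 (adjusted p = 0.463) without control replicate 4. Dio3, the deiodinase that inactivates thyroid hormone, stood at 0.20 (SE 0.17, adjusted p = 0.597), with its highest value, 6.16, on DicerCN replicate 5.

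The microRNA genes of this cluster are shown because their precursors share the transcripts of the maternal strand. Those opposite Rtl1 (miR-431, miR-433, miR-127, miR-434 and miR-136) are fully complementary to the Rtl1 message and are known to direct its cleavage. The precursor probe sets of Mir679, Mir539 and Mir412 passed the test. Mean log2 signals were 7.65 in control and 6.94 in DicerCN lenses for Mir679. Those of Mir539 (5.56 and 4.44) and Mir412 (4.95 and 4.54) were low, below the array medians of 6.54 to 6.56. Mature sequences are from RefSeq (GRCm38.p6), 5′ to 3′, with the seed, bases 2 to 8, in capitals:
miR-431-5p: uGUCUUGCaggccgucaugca
miR-433-3p: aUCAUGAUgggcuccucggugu
miR-127-3p: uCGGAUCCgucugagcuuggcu
miR-434-3p: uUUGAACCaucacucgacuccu
miR-136-5p: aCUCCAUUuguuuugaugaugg
miR-679-5p: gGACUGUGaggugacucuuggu
miR-539-5p: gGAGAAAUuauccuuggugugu
miR-412-3p: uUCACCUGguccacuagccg
miR-410-3p: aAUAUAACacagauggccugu
None of these 9 shares its seed with another of the 113 mature microRNAs between Dlk1 and Dio3 in the table, which hold 104 different seeds. The array measures RNA that contains the precursor, not the mature microRNA.

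Of 40 precursor probe sets in the interval, 3 fell (7.50%) and 0 rose, beside 3.97% and 2.56% of all genes, with a median change of −0.35. Control replicate 4 was the highest control array in 39 of the 40. Without it 7 fell and 0 rose, beside 3.92% and 2.31% of all genes, the median change was −0.16, and 32 of the 40 were below 0, against 39 with it. Several precursors lie within 1 transcript, as Mir341 and Mir370 do in Rian, so these counts are not of independent genes. Most of the 40 had a control mean below the array medians of 6.54 to 6.56, down to 2.73 for Mir376c. Mir127 was at −0.51 (SE 0.14, limma adjusted p = 0.0522) with all arrays and at −0.36 (SE 0.09, adjusted p = 0.0280) without control replicate 4. Mir539 fell by 1.12 and Mir679 by 0.71, and by 0.86 and 0.52 without that array.

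Control replicate 4 held the highest control value in 17 of the 29 imprinted genes (58.6%), against 16.6% of all genes. The SD of the control arrays was over 0.5 in 5 imprinted genes with it and in 1, Plagl1, without it. Dlk1 had an SD of 1.21 over all control arrays and of 0.035 over the other 4, and Rian one of 0.68 and 0.20. With the muscle score as a covariate, Rian stood at −1.19, Meg3 at −0.85, Zim1 at −0.72, Peg3 at −0.66 and Nnat at 1.51, and each passed the test. The muscle score was high on control replicate 4 alone, so this fit nearly repeats the one without that array. There Rian stood at −1.18, Meg3 at −0.84, Zim1 at −0.72, Peg3 at −0.67 and Nnat at 1.51. With the periocular mesenchyme score Rian, Meg3, Zim1 and Peg3 stood at −1.61, −1.06, −0.88 and −0.68, and these and Nnat passed as well. Dlk1, which did not pass, stood at −0.77 with that score and at 0.19 with the muscle score. Over all 29 genes, 1 was called higher and 4 lower without control replicate 4, the same genes as with it, beside 2.31% and 3.92% of all genes. The median change was then 0.0090.

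**Figure D3:**
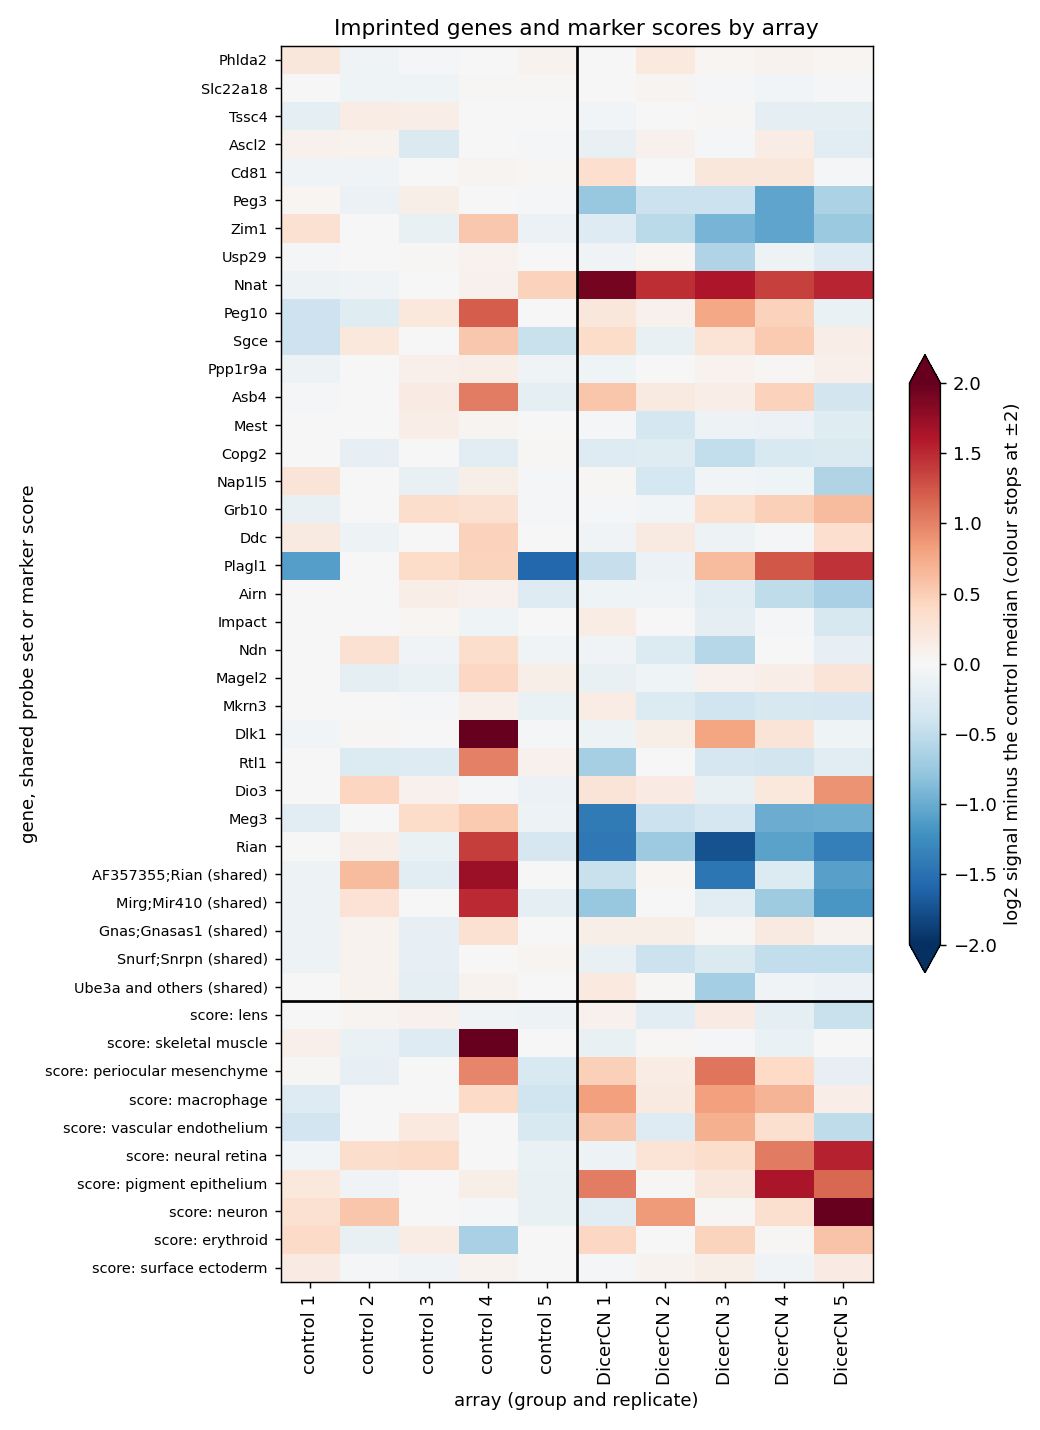
Log2 signal on each array minus the median of the control arrays, for the 29 measured imprinted genes, the probe sets they share with other genes and the mean of each marker list. Control replicate 4 is high in Dlk1, Rtl1, Rian, Peg10 and Asb4 and in the skeletal muscle score, and Plagl1 is highest on DicerCN replicates 4 and 5, as is the neural retina score.

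**Figure D4:**
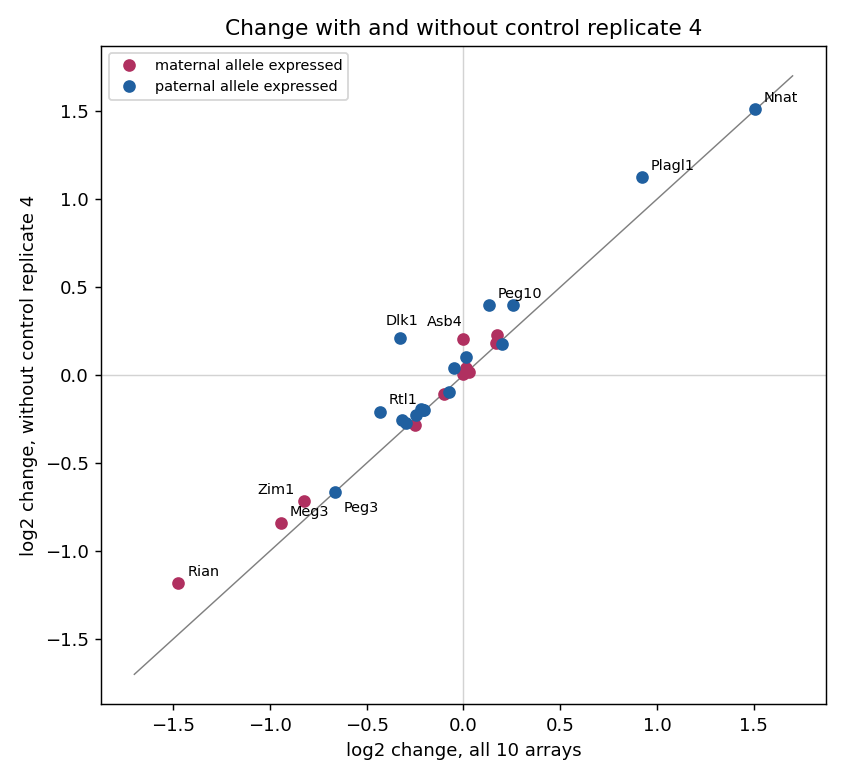
Change of each imprinted gene with all 10 arrays (horizontal) and without control replicate 4 (vertical), both as log2 signal in DicerCN minus control lenses, with the line of equal values. Most points lie near the line, Dlk1 crosses 0, and Rian moves from −1.47 to −1.18.

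In the Mest cluster, Mest, an enzyme-like protein of the alpha/beta hydrolase fold expressed from the paternal copy, had 12.57, 12.57, 12.71, 12.62 and 12.57 in control and 12.55, 12.22, 12.47, 12.46 and 12.33 in DicerCN lenses. Its neighbour Copg2, a subunit of the coat of transport vesicles, had 10.65, 10.49, 10.66, 10.45 and 10.67 in control and 10.39, 10.41, 10.16, 10.35 and 10.37 in DicerCN lenses. In both genes all DicerCN arrays were below all controls, by a narrow margin. Neither passed the test over all genes (Mest −0.20, SE 0.08, limma adjusted p = 0.162, and Copg2 −0.25, SE 0.08, adjusted p = 0.0880), with an exact permutation p of 0.00794 for each before any adjustment. Quantile normalization moved Mest to −0.04 (adjusted p = 0.828). The precursor of miR-335, which lies within Mest, stood at −0.04 (SE 0.12, adjusted p = 0.910).

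Plagl1, a zinc finger factor that restrains cell division, varied more than any other measured imprinted gene among DicerCN arrays, with log2 signals of 8.32, 9.43, 9.80, 9.87 and 7.86 in control and 8.97, 9.31, 10.06, 10.67 and 10.87 in DicerCN lenses. The groups overlapped, and the 2 highest values were on DicerCN replicates 4 and 5, where neural retina markers were highest. Its difference was 0.92 (SE 0.44, limma adjusted p = 0.291), and 0.23 (adjusted p = 0.828) with the neural retina score as a covariate. It was also smaller with the pigment epithelium score (0.41), with the macrophage score (0.45) and without DicerCN replicates 4 and 5 (0.39), and larger, 1.12, without control replicate 4. It did not pass in any of these.

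In the Peg10-Sgce cluster 0 of 4 genes passed the test, beside 6.54% of all genes. At an unadjusted p under 0.05, beside 3704 of all 19938 genes, 0 of the 4 passed. Peg10, another gene of retrotransposon origin, ran from 9.16 to 10.79 in control lenses, with control replicate 4 the highest, and from 9.45 to 10.35 in DicerCN lenses (0.13, SE 0.27, limma adjusted p = 0.865). Sgce, epsilon-sarcoglycan, stood at 0.25 (SE 0.19) and Asb4, an adaptor of ubiquitin ligases, at −0.0020 (SE 0.22), and both were highest in controls on replicate 4. Ppp1r9a, the actin-binding protein neurabin, stayed between 8.36 and 8.58 on all 10 arrays. The directions of these genes were not settled. Without control replicate 4, Peg10, Sgce and Asb4 stood at 0.40, 0.40 and 0.21, with the macrophage score at −0.56, −0.27 and −0.61, and with the periocular mesenchyme score at −0.14, 0.13 and −0.20. None passed in any of these fits.

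In the Kcnq1 cluster 0 of 5 measured genes passed the test, beside 6.54% of all genes. An unadjusted p under 0.05 was found in 0 of the 5, beside 3704 of all 19938 genes. Phlda2, which limits growth of the placenta, stood at 0.03 (SE 0.08, 95% confidence interval −0.14 to 0.19) and the transporter gene Slc22a18 at 0.02 (SE 0.06, interval −0.12 to 0.15). Tssc4 stood at −0.10 (SE 0.09) and Ascl2, a placental transcription factor, at 0.00 with an interval of −0.21 to 0.21. Cd81, a tetraspanin of the cell surface, stood at 0.17 (SE 0.08, limma adjusted p = 0.304), with DicerCN arrays from 10.49 to 10.84 and controls from 10.43 to 10.56.

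Of the genes of the Prader-Willi and Angelman region, 0 of the 3 measured passed, beside 6.54% of all genes. At an unadjusted p under 0.05, beside 3704 of all 19938 genes, 1 of the 3 passed. That was Ndn, the MAGE family protein necdin, at −0.32 (SE 0.12, limma adjusted p = 0.182), from 10.13 to 10.55 in control and 9.63 to 10.21 in DicerCN lenses. Mkrn3, a ring finger protein, stood at −0.22 (adjusted p = 0.278) and passed only when DicerCN replicate 1, the highest of its group at 6.76, was left out (−0.32, adjusted p = 0.0260). Magel2, also of the MAGE family, stood at 0.01 (SE 0.12). The probe set shared by Snurf and Snrpn, which lie on 1 message, had 9.35, 9.51, 9.28, 9.44 and 9.50 in control and 9.29, 9.02, 9.15, 8.96 and 8.96 in DicerCN lenses. It fell by 0.34 (SE 0.09, limma adjusted p = 0.0351) in a fit that added the probe sets of several symbols, in which 4.16% of all features fell and 2.47% rose. It did not pass when control replicate 4 was left out (−0.33, adjusted p = 0.0642). The probe set that names the ubiquitin ligase gene Ube3a with other genes stood at −0.13 (adjusted p = 0.707).

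The remaining imprinted genes did not pass the test. Grb10, an adaptor that restrains insulin and growth factor receptors, stood at 0.17 (SE 0.15) and its neighbour Ddc, the decarboxylase that makes dopamine and serotonin, at −0.05 (SE 0.12). Impact, a regulator of translation, stood at −0.08 (SE 0.09) and Nap1l5, a histone chaperone relative, at −0.25 (SE 0.12, limma adjusted p = 0.310). The probe set shared by Gnas, the stimulatory G protein gene, and Gnasas1 stood at 0.08 (SE 0.09, adjusted p = 0.722). H19 had no probe set of its own, and the one annotated to Mir675, which lies within H19 in RefSeq, and to Supt6 stood at 0.13 (SE 0.09, adjusted p = 0.482). Among the 29 genes, both group means were below every array median (6.54 to 6.56) in Ascl2, Usp29, Ddc, Magel2 and Dio3.

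Airn, the paternal noncoding RNA that runs antisense across Igf2r, stood at −0.30 (SE 0.12, limma adjusted p = 0.202), with 9.38, 9.38, 9.52, 9.47 and 9.13 in control and 9.30, 9.31, 9.17, 8.87 and 8.73 in DicerCN lenses. Igf2r, the receptor that clears Igf2 and is expressed from the maternal copy, rose by 0.47 (SE 0.09, limma adjusted p = 0.00932), and Slc22a2, a transporter gene of the same cluster, fell by 0.51 (SE 0.10, adjusted p = 0.00932). These 2 belong to a list of 40 other imprinted genes, of which 34 were measured, 3 rose and 2 fell, beside 2.56% and 3.97% of all genes, with a median change of 0.03. Igf2, the growth factor gene next to H19, rose by 0.45 (SE 0.10, limma adjusted p = 0.0178), from 12.29 to 12.79 in control to 12.90 to 13.19 in DicerCN lenses. Slc38a4, an amino acid transporter, rose by 0.60 (SE 0.15, adjusted p = 0.0328), and Cdkn1c, the cell cycle inhibitor of the Kcnq1 cluster, fell by 0.46 (SE 0.11, adjusted p = 0.0286). None of these 5 passed with the macrophage score. Igf2r then stood at 0.42 (limma adjusted p = 0.162), Igf2 at 0.44 (0.192), Cdkn1c at −0.59 (0.0961) and Slc22a2 at −0.42 (0.192), while Slc38a4 shrank to 0.24 (0.557). Igf2 also missed the threshold without control replicate 1 (0.42, adjusted p = 0.0561). Slc22a2 missed it with the pigment epithelium score (−0.33, adjusted p = 0.170) and without DicerCN replicates 4 and 5 (−0.48, adjusted p = 0.0552). Cdkn1c and Slc38a4 missed it in 15 and 10 of 24 other settings.

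Of 22 genes that set or keep imprints, among them the DNA methyltransferases, Zfp57, Trim28 and Ctcf, 0 passed the test. Of all genes 6.54% passed. An unadjusted p under 0.05 was found in 1 of the 22, beside 3704 of all 19938 genes. That was Mbd3, a protein of a chromatin remodelling complex, at −0.18 (SE 0.08, limma adjusted p = 0.222). Zfp57, the zinc finger protein that keeps methylation at imprinted regions, stood at 0.41 (SE 0.22, adjusted p = 0.343).

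By expressed parental copy, 12 maternally and 17 paternally expressed genes were measured. Of the maternal ones 0 rose and 3 fell (Zim1, Meg3 and Rian), with a median change of −0.0010, and of the paternal ones 1 rose (Nnat) and 1 fell (Peg3), with a median of −0.20. Leaving out genes whose imprint is known from a few tissues only, 3 of 5 maternal genes fell, with a median of −0.82, and 1 rose and 1 fell of 16 paternal ones, with a median of −0.21. Which genes to leave out was set from general knowledge and not measured, and the maternal median depends on that choice. The maternal genes left out were Tssc4, Ascl2, Cd81, Ppp1r9a, Asb4, Copg2 and Grb10, with changes from −0.25 to 0.17. Of all genes 2.56% rose and 3.97% fell. Meg3 and Rian share a cluster, so these counts are not of independent genes, and the difference between the parental classes was not tested. Within clusters, both directions of parental expression fell together in the Peg3 cluster, while in the Dlk1-Dio3 cluster the 2 genes that passed were both maternal.

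Promoter windows, the 250 bases before a gene's start, were available for 31 of the 36 imprinted genes in the RefSeq table (GRCm38.p6). They are shown for Nnat, Peg3, Zim1 and Meg3, 4 of the 5 genes that passed the test, as examples with and without the motifs searched, 5′ to 3′ on the gene's strand. Capitals mark TGACGTCA, the cAMP response element, and TGCCGC, the letters recognised by Zfp57, on either strand.
Nnat, chr2:157559828-157560077, plus strand: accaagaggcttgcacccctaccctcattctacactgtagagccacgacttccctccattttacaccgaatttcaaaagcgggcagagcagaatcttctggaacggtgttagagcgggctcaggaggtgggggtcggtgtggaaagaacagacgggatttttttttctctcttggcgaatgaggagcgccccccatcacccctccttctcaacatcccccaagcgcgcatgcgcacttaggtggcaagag
Peg3, chr7:6730420-6730669, minus strand: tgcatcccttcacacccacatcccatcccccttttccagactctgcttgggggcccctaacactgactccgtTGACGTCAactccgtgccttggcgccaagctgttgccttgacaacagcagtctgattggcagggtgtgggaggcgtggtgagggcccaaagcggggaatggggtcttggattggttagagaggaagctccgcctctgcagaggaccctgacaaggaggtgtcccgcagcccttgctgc
Zim1, chr7:6696433-6696682, minus strand: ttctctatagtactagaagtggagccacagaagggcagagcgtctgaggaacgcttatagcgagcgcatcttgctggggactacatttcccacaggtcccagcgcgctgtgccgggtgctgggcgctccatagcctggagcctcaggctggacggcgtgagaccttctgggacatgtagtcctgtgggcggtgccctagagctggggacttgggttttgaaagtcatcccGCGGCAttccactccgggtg
Meg3, chr12:109540746-109540995, plus strand: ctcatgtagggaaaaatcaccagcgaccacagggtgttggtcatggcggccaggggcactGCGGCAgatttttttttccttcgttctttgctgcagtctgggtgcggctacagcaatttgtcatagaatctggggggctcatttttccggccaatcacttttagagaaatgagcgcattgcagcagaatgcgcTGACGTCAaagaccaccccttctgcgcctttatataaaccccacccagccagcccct
TGACGTCA began 178 bases before the start of Peg3 and 57 bases before that of Meg3, and was in 2 of 31 imprinted genes (6.45%) against 1.77% of 27025 genes. TGCCGC was in 6 of 31 (19.4%) against 9.84%, TATAAA in 9 of 31 (29%) against 14.3%, and GCCATNTT, the letters of YY1, in 2 of 31 (6.45%) against 4.49%. The window of Usp29 overlaps that of Peg3 by 163 bases. For genes with several starts, a motif counted if any window held it, and the window with the most CpG pairs is the one shown. Over each gene's window with the most CpG pairs, the median count was 10 in the imprinted genes, against 6 in all genes. A match is a description of letters in a window and shows no binding.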

How the data were processed

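Total RNA (100 ng) from the lens pair of each embryo was labelled as sense-strand cDNA and hybridised to 1 Affymetrix array, per the labels' protocols. GCOS is the only tool named, per the submitters' processing notes. The authors deposited 1 table of 35557 probe sets on 10 arrays. The authors deposited these as processed values, read here as log2 signals from their range of 1.91 to 15.24 and array medians of 6.54 to 6.56, with summarisation and normalization not given in the sources used here. Therefore a change in total RNA per lens cannot be seen.

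Probe sets were named from the platform annotation, where 21789 have 1 symbol, 1621 several and 12147 none. Those with 1 symbol were used, and the one with the highest mean over the arrays stood for each of 19938 genes. Groups were compared with limma 3.58.1 (R 4.3.3), lmFit and eBayes, 2-sided, with Benjamini-Hochberg adjustment over all genes, checked on simulated data. Single values also got an exact 2-sided permutation test over 252 splits. Marker scores are means of log2 signals over a list. The labels describe the samples as independent embryos, and the number of arrays limits the precision (median SE 0.0986).

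Every imprinted gene is reported. By rule, array values are given for those that passed or whose groups did not overlap, and from the lists of other imprinted genes and imprint regulators those that passed are named, up to 6 a list by smallest p, with Igf2, Cdkn1c and Dicer1. Array values of other genes, and Mbd3, Zfp57 and the named microRNA precursors, were chosen after their values were seen. The members, gene lists and motifs were chosen with earlier results of these data known. Sequences were read from RefSeq tables. The only coordinates printed are those of RefSeq promoter windows (GRCm38.p6), since no source used here states the array's genome build. Alternatives covered the probe set rule, a filter on low signals, quantile normalization, array weights, eBayes with trend, a replicate block, arrays left out and marker scores as covariates.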

Additional observations from a re-analysis of the deposited data

Results flagged for a closer look

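Among 58 sets of 5 arrays (29 imprinted genes in 2 groups), 6 held an array whose gap to its nearest neighbour took up more than 0.71 of the whole range, a limit that chance passes in about 1 of 20 sets. Of these, 4 were control replicate 4 as the highest control: Dlk1 at 10.58 (next 7.93), Rian at 8.77 (next 7.53), Rtl1 at 7.81 (next 6.88) and Asb4 at 7.39 (next 6.53). The others were Mkrn3 on DicerCN replicate 1, the highest at 6.76 (next 6.34), and Copg2 on DicerCN replicate 3, the lowest at 10.16 (next 10.35).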

How the results depend on the processing

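Each of 24 other settings was applied to the count of genes and to the imprinted genes; 3 of them (probe sets of several symbols, the pigment epithelium score, and leaving out DicerCN replicates 4 and 5) were chosen after seeing the data. With all arrays 1303 genes differed (511 higher, 792 lower), 5 of them imprinted genes (1 higher, 4 lower). Leaving out 1 array at a time gave 784 to 1295 genes, 303 to 503 higher and 481 to 840 lower, with 784, 303 and 481 without control replicate 1 and 865 and 325 (all and higher) without control replicate 2, and 504 lower without control replicate 3. The imprinted genes called numbered 5 to 6, with 4 to 5 lower. The macrophage score left 254 genes (70 higher, 184 lower) and the pigment epithelium score 519 (227 higher, 292 lower). Both scores were higher on average in DicerCN lenses, so these counts do not tell either score from the group. Under each, 1 imprinted gene was called, Nnat, and 0 lower. The neural retina score left 509 lower genes. Without DicerCN replicates 4 and 5, 450 genes were lower and 3 imprinted genes were called (2 lower, Peg3 and Rian). The replicate number as a block gave 1100 genes and the same 5 imprinted genes. The numbers share no stated litter or day: deviations of same-numbered arrays correlated at −0.09 to 0.19, and 1 of 5 control arrays correlated best with its own number. Averaging probe sets per gene gave 1307 genes and the same 5 imprinted genes. Each measured imprinted gene has 1 probe set of its own, so averaging could not change its signals and does not check its call. No call turned its sign. Array signals with no detection call limit the genes of low signal.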
